A study of Mus musculus with 8 samples.

Results

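Ribosome biogenesis genes encode the proteins that make ribosomal RNA in the nucleolus, modify and cut it, and assemble it with ribosomal proteins into the small and large subunits. The 48 genes described here were chosen by name as factors of that pathway, from RNA polymerase I subunits to late assembly factors, and were matched from Ensembl gene IDs to symbols. All 48 were found among the 45706 genes of the expression files and all 48 passed the filter on low counts, which left 16258 genes for testing. The study profiled LSK cells (lineage-negative, Sca-1-positive, Kit-positive), the marrow fraction that holds blood stem cells and early progenitors, sorted by FACS from C57BL/6 bone marrow. RNA-seq, and ATAC-seq (a transposase assay of chromatin accessibility), were each run on 2 libraries labelled Hira KO and 2 labelled WT. Hira encodes a chaperone that places the histone variant H3.3. The sources used here do not give the age of the mice, the Cre driver or the deleted exons, and they do not say whether a library was 1 mouse or a pool. The p-values below therefore measure the spread between these libraries, which may be technical.

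Ribosome production begins when RNA polymerase I copies the ribosomal DNA repeats into a long precursor. Small nucleolar ribonucleoproteins (snoRNPs) guide chemical changes on that precursor, box C/D particles placing methyl groups and box H/ACA particles making pseudouridines. The small subunit processome and the large subunit assembly factors then fold and trim the RNA until the 2 subunits leave the nucleus. Growing and dividing cells make many ribosomes, quiescent blood stem cells make few, and the transcription factor Myc is a known activator of these genes.

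The promoters of the genes were read from RefSeq (build GRCm38.p6), which held an entry for 43 of the 48; Npm1, Fbl, Nol6, Rrp12 and Bop1 had none in the table. Stretches of 130 bases, from 100 before the start of transcription to 30 after it, are shown 5′ to 3′ on the gene's own strand for 6 of them, with the E-box CACGTG in capitals. CACGTG is the sequence that Myc and its partner Max are known to bind. Nop2 and Utp18 are shown because they had the lowest and the highest RNA fold change of the 48, Rrn3 because it recruits RNA polymerase I, and Wdr43 as a small subunit processome gene. Nolc1 and Gnl3 are shown as genes with low RNA p-values and no E-box. The windows lay at chr6:125131783-125131912 (plus strand, Nop2), chr11:93885737-93885866 (minus strand, Utp18), chr16:13780599-13780728 (plus strand, Rrn3), chr17:71616115-71616244 (plus strand, Wdr43), chr19:46075747-46075876 (plus strand, Nolc1) and chr14:31019102-31019231 (minus strand, Gnl3).
Nop2: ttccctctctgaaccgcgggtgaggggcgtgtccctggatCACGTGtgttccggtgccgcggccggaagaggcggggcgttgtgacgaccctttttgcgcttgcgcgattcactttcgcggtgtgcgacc
Utp18: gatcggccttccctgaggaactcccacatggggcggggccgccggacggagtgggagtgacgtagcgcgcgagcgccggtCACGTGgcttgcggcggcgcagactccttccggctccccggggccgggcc
Rrn3: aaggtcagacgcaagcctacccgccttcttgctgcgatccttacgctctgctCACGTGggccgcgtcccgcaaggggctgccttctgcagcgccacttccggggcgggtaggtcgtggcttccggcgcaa
Wdr43: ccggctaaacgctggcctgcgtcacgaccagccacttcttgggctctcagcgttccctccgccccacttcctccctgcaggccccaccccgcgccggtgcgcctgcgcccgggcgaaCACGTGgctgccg
Nolc1: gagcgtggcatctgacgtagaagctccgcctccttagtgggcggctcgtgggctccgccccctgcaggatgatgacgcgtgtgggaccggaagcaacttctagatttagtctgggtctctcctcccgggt
Gnl3: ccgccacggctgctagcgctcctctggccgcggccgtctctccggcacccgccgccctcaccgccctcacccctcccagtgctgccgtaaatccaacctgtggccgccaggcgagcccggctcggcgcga

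Before the results, the labels need a limit. Hira itself had 24.4 and 23.3 CPM in the labelled Hira KO libraries, against 16.5 and 17.2 CPM in the labelled WT libraries, a log2 fold change of 0.50 that did not pass edgeR's quasi-likelihood test (adjusted p = 0.18). CPM are counts scaled to a common library size, with TMM factors. The level was thus higher in the libraries labelled as knockouts, and the deposited files carry in their names the opposite genotype to the sample titles for all 8 libraries. Counts over the whole gene cannot show a deletion of some exons, so the groups are named by their titles throughout and every direction below rests on those titles. Expected counts totalled 17.5 and 19.4 M in the labelled Hira KO pair of RNA libraries and 16.6 and 19.8 M in the labelled WT pair. Mitochondrial genes took 42.9 and 53.1% of them in the labelled Hira KO pair and 40.8 and 51.7% in the labelled WT pair, the second library of each group having the larger share. In bulk RNA, fewer cells of a type and less RNA per cell cannot be told apart.

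RNA of 47 of the 48 ribosome biogenesis genes had a log2 fold change below 0 in labelled Hira KO against labelled WT LSK cells. Below 0 were 49.1% of all genes tested. The median over the 48 was -0.52, which is 69.5% of the labelled WT level, while the median over all genes tested was 0.01. The quartiles of the 48 were -0.64 and -0.44 and the range was -1.21 (Nop2) to 0.31 (Utp18), so that 33 of them lay between -0.75 and -0.25. In 44 of the 48 genes both labelled Hira KO libraries were below both labelled WT libraries, as in 27.8% of all genes tested, and in 0 of the 48 were both above (28.3% of all genes). The 4 genes whose groups overlapped were Nop58, Dimt1, Utp18 and Nob1.

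Single genes of the set seldom passed the test across all genes. Bop1 fell (adjusted p = 0.0427, edgeR's quasi-likelihood test with Benjamini-Hochberg adjustment), and it was the 1 of 48 called lower, where 0.48% of all genes tested were called lower. None of the 48 was called higher, where 1.32% of all genes were. None was higher at an unadjusted p under 0.05, where 12.2% of all genes tested were. None was called higher by DESeq2 (774 of 29706 genes) or by limma (392 and 376 of 16258 genes with pseudocounts of 1 and 0.1). These shares of called genes are small, so 0 of 48 called higher is not read as a result about the 48. At an unadjusted p under 0.05, 29 of the 48 were lower, against 10.6% of all genes tested. The count of called genes moved when each library was left out in turn, over all genes as well as among the 48. Without a filter on low counts 21 of the 48 were called lower, where 1017 of 29706 genes were. With a filter of at least 1 CPM in all libraries it was 4, where 152 of 12692 genes were called lower. With DESeq2 it was 10 (517 of 29706 genes, a set that holds every gene with any count and so many of low count). With limma on log2 TPM it was 0 (262 and 246 of 16258 genes with pseudocounts of 1 and 0.1). The median of the 48 moved far less, lying between -0.57 and -0.49 when each library was left out in turn.

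**Figure D1:**
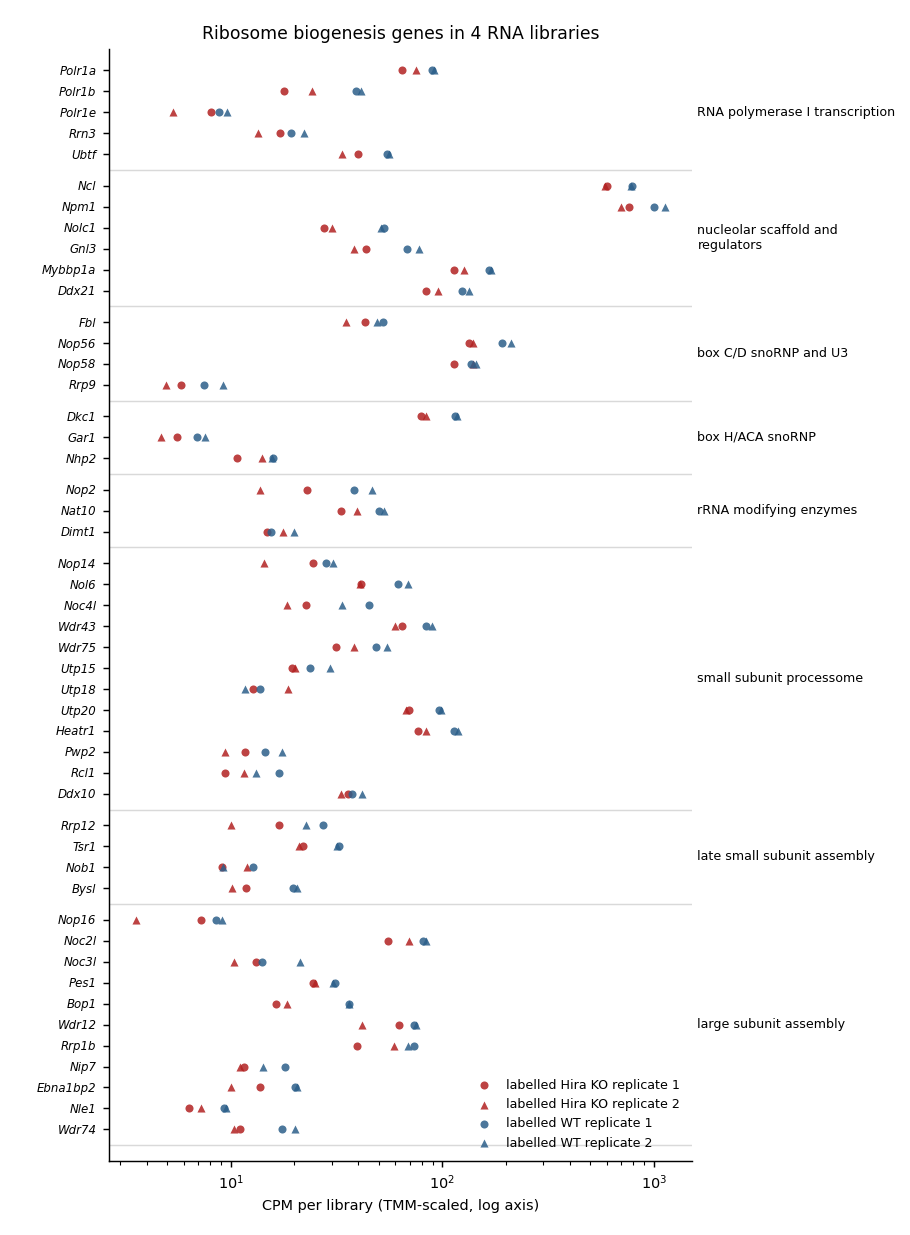
CPM of each of the 48 genes (log axis) in the 4 RNA libraries, ordered by role, with labelled Hira KO in red, labelled WT in blue, circles for replicate 1 and triangles for replicate 2. In 44 genes both red points lie left of both blue points, the exceptions being Nop58, Dimt1, Utp18 and Nob1.

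Summed over the 48 genes, the CPM were 2980 and 2952 in the labelled Hira KO libraries, against 4092 and 4316 in the labelled WT libraries. The groups did not overlap, and within each group the sums were close. As a share of all counts that were not mitochondrial, the genes took 0.575 and 0.541% in the labelled Hira KO libraries and 0.787 and 0.822% in the labelled WT libraries. The authors' deposited TPM are scaled by gene length but share their total with mitochondrial RNA. They summed to 2465 and 1767 in labelled Hira KO and 3485 and 2862 in labelled WT, again without overlap. Npm1 and Ncl were the largest terms of these sums in every library. Npm1 had 759 and 699 CPM in labelled Hira KO and 996 and 1130 CPM in labelled WT. Ncl had 601 and 586 CPM in labelled Hira KO and 788 and 778 CPM in labelled WT. In TPM, Npm1 had 1150 and 791 in labelled Hira KO and 1600 and 1390 in labelled WT.

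Each labelled Hira KO library was lower than each labelled WT library over most of the 48 genes. The median log2 ratio of CPM was -0.53 for labelled Hira KO 1 over labelled WT 1 (48 of 48 genes below 0) and -0.56 for labelled Hira KO 1 over labelled WT 2 (47 below 0). For labelled Hira KO 2 it was -0.52 over labelled WT 1 (45 below 0) and -0.59 over labelled WT 2 (46 below 0). Between libraries of the same label the medians were near 0, at -0.04 for labelled Hira KO 2 over 1 (26 below 0) and 0.06 for labelled WT 2 over 1 (14 below 0). The medians over all genes tested lay between 0.00 and 0.01 in these 6 pairs. The pairs share libraries, so they are not independent of each other.

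**Figure D2:**
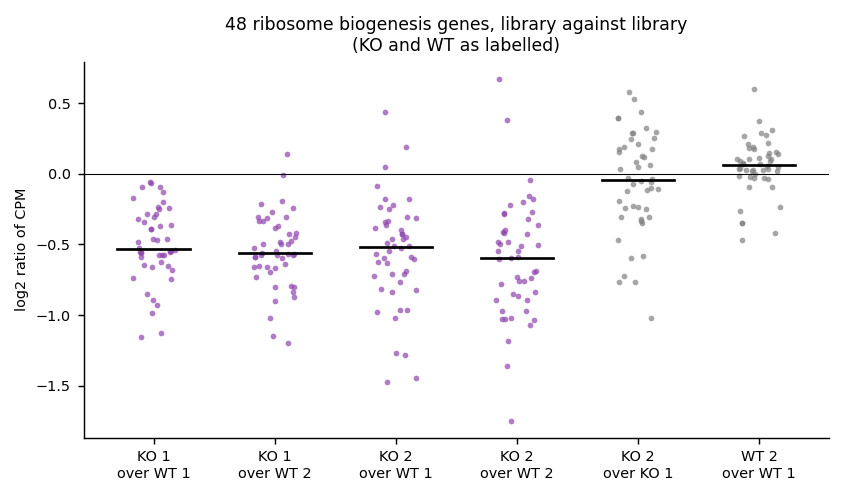
log2 ratio of CPM for each of the 48 genes in 6 pairs of RNA libraries, 4 of labelled Hira KO over labelled WT (purple) and 2 within a label (grey), with the median as a bar. The 4 medians between labels lie from -0.59 to -0.52 and the 2 within a label at -0.04 and 0.06.

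Among RNA polymerase I genes, all 5 were below 0 and none overlapped, with a median log2 fold change of -0.45 and 3 at an unadjusted p under 0.05. Over all genes tested, 49.1% were below 0, 27.8% lower without overlap and 10.6% lower at an unadjusted p under 0.05. These shares serve for the counts of each role group that follows. Polr1b, which forms the catalytic core of the enzyme together with Polr1a, had 17.9 and 24.3 CPM in labelled Hira KO, against 39.2 and 41.1 CPM in labelled WT. Both labelled Hira KO libraries were well below both others, and the log2 fold change of -0.93 (SE 0.21) had an adjusted p of 0.0654 in edgeR's test. Ubtf, which binds ribosomal DNA and keeps it active, had 40 and 33.6 CPM in labelled Hira KO and 55.0 and 56.0 CPM in labelled WT (log2 fold change -0.59, SE 0.17, adjusted p = 0.103). The labelled WT libraries were nearly equal for it, and the labelled Hira KO libraries both lower. Polr1a, the largest subunit, the subunit Polr1e and Rrn3, which brings the polymerase to its promoter, had log2 fold changes from -0.45 to -0.37.

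All 6 genes of nucleolar scaffolds and regulators were below 0, none overlapped, and all 6 had an unadjusted p under 0.05 (median -0.53, range -0.86 to -0.40). Npm1, nucleophosmin, an abundant nucleolar scaffold and histone chaperone, had the highest level of the 48 per gene length, with 1150 and 791 TPM in labelled Hira KO and 1600 and 1390 TPM in labelled WT. In CPM it had 759 and 699 in labelled Hira KO, against 996 and 1130 in labelled WT (log2 fold change -0.55, SE 0.17, adjusted p = 0.122 in edgeR's test). Its processed copies elsewhere in the genome could share reads with it, so that its level is uncertain. Nolc1, a chaperone of snoRNPs, had 27.7 and 30 CPM in labelled Hira KO and 52.8 and 51.5 CPM in labelled WT (log2 fold change -0.86, SE 0.16, adjusted p = 0.0516). Replicates of Nolc1 differed little within each label, and the groups stood far apart beside that spread. Gnl3, nucleostemin, a GTP-binding protein of the nucleolus first described in stem cells, had 43.6 and 38.2 CPM in labelled Hira KO, against 68.1 and 77.9 CPM in labelled WT (log2 fold change -0.84, SE 0.17, adjusted p = 0.0545). It too had both labelled Hira KO libraries below both others. The other members of the group are Ncl (nucleolin), Mybbp1a, a Myb-binding protein of the nucleolus, and the helicase Ddx21, whose log2 fold changes lay between -0.52 and -0.40.

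All 4 box C/D genes were below 0, with a median of -0.47 on the log2 scale, 1 overlapping between the labels and 1 at an unadjusted p under 0.05. Nop56, a core scaffold of the particle, had 133 and 139 CPM in labelled Hira KO and 191 and 211 CPM in labelled WT (log2 fold change -0.56, SE 0.14, adjusted p = 0.0789 in edgeR's test). Fbl, fibrillarin, the methyltransferase of the particle, had 43.0 and 34.9 CPM in labelled Hira KO, against 52.5 and 49.1 CPM in labelled WT (log2 fold change -0.38, SE 0.18, adjusted p = 0.247). For both genes the labelled Hira KO libraries were the 2 lowest, but the interval of Fbl included 0. Nop58, the partner of Nop56 in the scaffold, overlapped between the groups, with a log2 fold change of -0.14 (SE 0.16), and Rrp9, which belongs to the U3 particle, had -0.63 (SE 0.30). The difference between Nop56 and Nop58 was not tested.

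In the box H/ACA group all 3 genes were below 0 without overlap, 1 of them at an unadjusted p under 0.05 (median -0.50). Dkc1, dyskerin, the pseudouridine synthase that also stabilises telomerase RNA, had 79.3 and 83.8 CPM in labelled Hira KO, against 115 and 117 CPM in labelled WT. The libraries of each label were within a few CPM of each other and the groups stood apart (log2 fold change -0.51, SE 0.14, adjusted p = 0.0956 in edgeR's test). Gar1 had few counts, with 5.54 and 4.69 CPM in labelled Hira KO and 6.93 and 7.55 CPM in labelled WT. Its interval of -1.21 to 0.21 around -0.50 included 0. Nhp2 had a log2 fold change of -0.35 (SE 0.24).

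All 3 enzymes that modify ribosomal RNA directly were below 0, 2 of them at an unadjusted p under 0.05, and Nop2 had the lowest fold change of all 48 genes. Nop2, a cytosine methyltransferase of the large subunit RNA, had 22.8 and 13.8 CPM in labelled Hira KO, against 38.4 and 46.4 CPM in labelled WT. The groups did not overlap, but the replicates were spread more than for most genes, and the log2 fold change of -1.21 (SE 0.27) had an adjusted p of 0.0654 in edgeR's test. Nat10, the acetyltransferase of the small subunit RNA, had 33.3 and 39.7 CPM in labelled Hira KO and 50.1 and 53.0 CPM in labelled WT (log2 fold change -0.50, SE 0.17, adjusted p = 0.146). Dimt1, which methylates adenosines of the small subunit RNA, overlapped between the groups and had -0.13 (SE 0.23).

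The small subunit processome is the largest role group, with 12 genes, of which 11 were below 0 and 11 did not overlap (median -0.53, 7 with an unadjusted p under 0.05). Nol6, a core processome protein, had 41.4 and 40.6 CPM in labelled Hira KO and 61.8 and 68.6 CPM in labelled WT (log2 fold change -0.67, SE 0.16, adjusted p = 0.0716 in edgeR's test). Noc4l, named for its yeast counterpart in small subunit export, had 22.7 and 18.4 CPM in labelled Hira KO, against 44.8 and 33.5 CPM in labelled WT (log2 fold change -0.93, SE 0.22, adjusted p = 0.0723). In both genes every labelled Hira KO library was below every labelled WT library. Wdr75, part of the complex that loads first onto the precursor, had the highest TPM of the group and gave 31.3 and 38.3 CPM in labelled Hira KO and 48.3 and 54.5 CPM in labelled WT (log2 fold change -0.56, SE 0.18, adjusted p = 0.13). Its partners in that complex, Utp15, Wdr43 and Heatr1, had log2 fold changes from -0.54 to -0.43. Utp18 was the 1 gene of the 48 above 0, with 12.8 and 18.6 CPM in labelled Hira KO and 13.7 and 11.7 CPM in labelled WT. Its groups overlapped and its interval of -0.31 to 0.92 around 0.31 included 0. Pwp2, which sits with Utp18 in the same subcomplex, had a log2 fold change of -0.60 (SE 0.25). The difference between Pwp2 and Utp18 was not tested. The remaining genes were Nop14, Utp20, Rcl1 and the helicase Ddx10, with values from -0.58 to -0.20.

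Late factors of the small subunit had the lowest median of the 8 role groups, -0.73 over 4 genes, all below 0 and 3 of them at an unadjusted p under 0.05. Bysl, bystin, an assembly factor of the small subunit, had 11.8 and 10.1 CPM in labelled Hira KO, against 19.7 and 20.5 CPM in labelled WT (log2 fold change -0.88, SE 0.22, adjusted p = 0.0789 in edgeR's test). Tsr1, a GTPase-like factor of the cytoplasmic precursor, had 22.0 and 21.0 CPM in labelled Hira KO and 32.3 and 31.7 CPM in labelled WT (log2 fold change -0.58, SE 0.18, adjusted p = 0.121). Within each label the libraries were close for both genes, and the labels did not overlap. Rrp12, an export factor, had -0.88 (SE 0.28), whereas the groups overlapped for Nob1, the nuclease that makes the final cut of the small subunit RNA, at -0.06 (SE 0.29).

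All 11 large subunit genes were below 0 and none overlapped, and 6 had an unadjusted p under 0.05 (median -0.53, range -1.06 to -0.31). Bop1 lies on chr15:76452988-76477249 (GRCm38) and joins Pes1 and Wdr12 in the PeBoW complex, which is needed to cut and mature the large subunit RNA. It had 16.3 and 18.5 CPM in labelled Hira KO, against 36.3 and 36.2 CPM in labelled WT, or 48% of the labelled WT level. Both labelled WT libraries were almost identical and stood far above both others, and the log2 fold change was -1.06 (SE 0.18, adjusted p = 0.0427 in edgeR's test). That call was lost when labelled WT 1 was left out (adjusted p = 0.418), when labelled WT 2 was left out (0.359) and with limma on log2 TPM (0.186 and 0.182 with pseudocounts of 1 and 0.1). Over all 12 other settings its log2 fold change lay between -1.16 and -0.99 and its adjusted p between 0.000101 and 0.418. The gene body overlaps Mroh1 and Scx in RefSeq, and no source states that strand was kept, so reads of these genes cannot be told apart where they overlap.

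The partners of Bop1 were set beside it after the values had been seen. Pes1 had 24.5 and 25.1 CPM in labelled Hira KO, against 31.0 and 30.4 CPM in labelled WT (log2 fold change -0.31, SE 0.17, adjusted p = 0.327). Wdr12 had 62.2 and 41.5 CPM in labelled Hira KO, against 73.2 and 74.9 CPM in labelled WT (log2 fold change -0.51, SE 0.21, adjusted p = 0.204). Neither passed edgeR's test, although the groups did not overlap for either, and their differences from Bop1 were not tested. Without labelled Hira KO replicate 1, which left 1 library under that label, Wdr12 was at -0.85. Wdr74, which works with a remodelling ATPase of the precursor, had 11.0 and 10.3 CPM in labelled Hira KO and 17.5 and 20.2 CPM in labelled WT (log2 fold change -0.82, SE 0.22, adjusted p = 0.0947). Rrp1b, a nucleolar protein related to a yeast large subunit factor, had the highest TPM of the group and gave 39.6 and 59.1 CPM in labelled Hira KO, against 73.5 and 69.0 CPM in labelled WT (log2 fold change -0.53, SE 0.21, adjusted p = 0.194). Its labelled Hira KO libraries were far apart, yet both stayed below labelled WT. The other 6 genes of the group, Nop16, Noc2l, Noc3l, Nip7, Ebna1bp2 and Nle1, had log2 fold changes between -0.77 and -0.40.

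**Figure D3:**
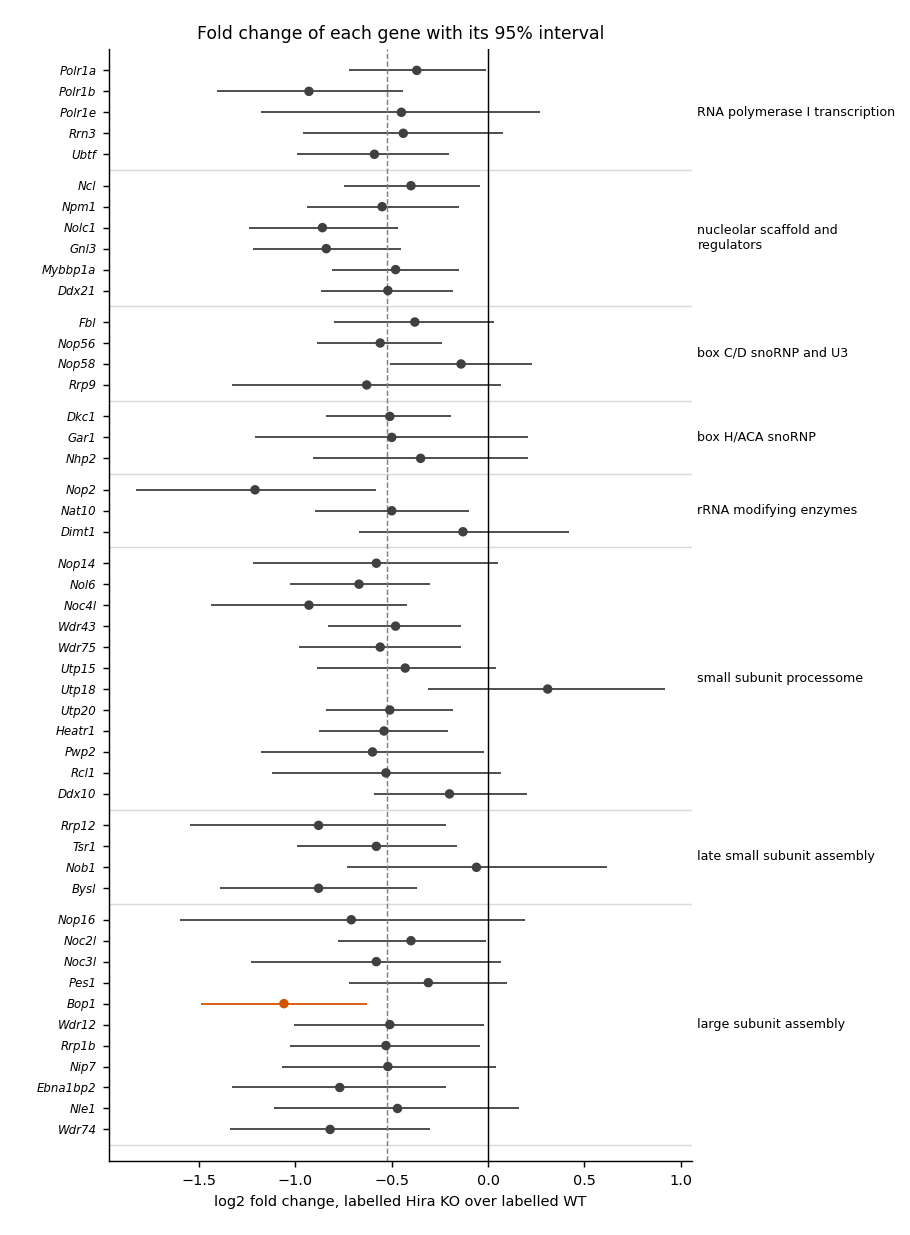
log2 fold change of each of the 48 genes, labelled Hira KO over labelled WT, with its 95% interval from edgeR, ordered by role; the dashed line is their median of -0.52 and Bop1, the 1 gene called, is in orange. The intervals of 29 genes lie below 0 and those of 19 include 0.

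Highly and weakly expressed genes of the set had like fold changes, with smaller errors for the first. The mean TPM of the 48 genes ran from 4.11 to 1230 with a median of 14.4, and the smallest expected count of any of them in a library was 59.01. The 24 genes at or above the median TPM had a median log2 fold change of -0.52 with a median SE of 0.17, and 20 of them had an unadjusted p under 0.05. The 24 genes below it had -0.55 with a median SE of 0.24, and 9 passed that threshold. Of the 48 genes, 14 overlap the body of another protein-coding gene in RefSeq, among them Gnl3, Nop56, Dkc1, Nat10, Tsr1, Bysl, Bop1 and Wdr12 of those given per library. Without strand their reads cannot be told apart from those of the neighbour.

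Other genes of the pathway were read from lists of named subunits and factors, of which 117 of 119 were tested and 2, Riok2 and Exosc6, were not analysed here. Of the 117, 101 were below 0 with a median log2 fold change of -0.35, 71 did not overlap and were lower (27.8% of all genes tested), and 33 were lower and 1 higher at an unadjusted p under 0.05 (10.6 and 12.2% of all genes tested). The test called 1 of the 117, which was lower (0.48% of all genes tested), a share too near that of all genes to be read as a result about the list. Taf1c, a subunit of the factor that selects the RNA polymerase I promoter, had 8.29 and 8.17 CPM in labelled Hira KO, against 20.3 and 18.7 CPM in labelled WT. It fell by 1.24 on the log2 scale (SE 0.22, adjusted p = 0.0471 in edgeR's test), a call lost when labelled WT 1 was left out (adjusted p = 0.445), when labelled WT 2 was left out (0.349) and with limma (0.273 and 0.268). The other 10 of the 11 further polymerase I genes were not called, and the median of the 11 was -0.19.

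In the remaining lists of the pathway the smallest adjusted p was 0.0632. The 10 other snoRNP genes were all below 0 (median -0.28), with Ruvbl2, an ATPase that assembles the particles, at 50.9 and 31.5 CPM in labelled Hira KO and 94.8 and 85.3 CPM in labelled WT (log2 fold change -1.13, SE 0.24, adjusted p = 0.0632 in edgeR's test). Naf1, an assembly factor of the H/ACA particle, had a log2 fold change of -0.49 (adjusted p = 0.224). Of 32 other small subunit factors, 29 were below 0 (median -0.42), with Utp4 at -0.78 (0.0654) and the helicase Dhx37 at -0.80 (0.0925). Of 41 other large subunit factors, 33 were below 0 (median -0.29), with Urb1 at -1.01 (0.0648) and Nol9, a kinase of the precursor RNA, at -0.79 (0.0699). Of 23 genes of the RNA exosome and RNase MRP, which trim the precursor, 20 were below 0 (median -0.39), with the RNase subunits Pop1 at -1.17 (0.0712) and Rpp38 at -0.97 (0.152). All of these lists thus lay on the same side as the 48 genes, with medians nearer to 0.

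**Figure D4:**
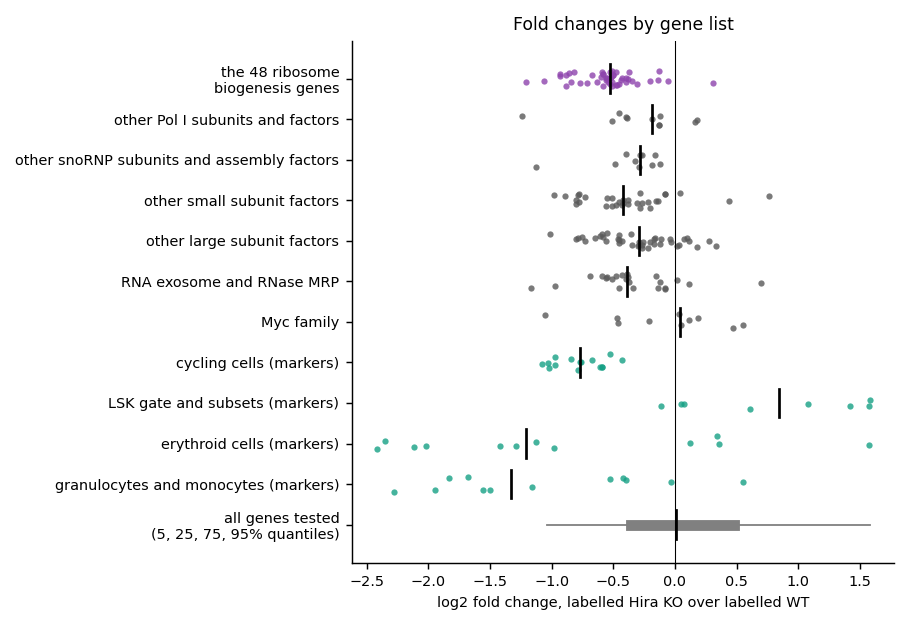
log2 fold change, labelled Hira KO over labelled WT, of each gene in the 48 (purple), the other pathway and Myc family lists (grey) and 4 marker lists (green), with list medians as bars; the bottom row gives the 5, 25, 50, 75 and 95% quantiles of all genes tested. The 48 genes centre on -0.52, the cycling genes on -0.77 and all genes on 0.01.

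The Myc family list had 10 tested genes with a median log2 fold change of 0.04, 1 lower and 1 higher at an unadjusted p under 0.05, and a smallest adjusted p of 0.145. Myc, the activator named above, had 305 and 287 CPM in labelled Hira KO, against 447 and 367 CPM in labelled WT. Both labelled Hira KO libraries were lower, with a log2 fold change of -0.46 (SE 0.16) and an adjusted p of 0.145 in edgeR's test. Mxd1, an antagonist that competes with Myc for Max, had 34.5 and 38.5 CPM in labelled Hira KO and 27.9 and 24.8 CPM in labelled WT (log2 fold change 0.47, SE 0.18, adjusted p = 0.18). The groups did not overlap for either gene, and neither passed the test.

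All markers of dividing cells and most of the listed markers of maturing cells were below 0 too, and their part in the result was not tested. Of all genes tested, 49.1% were below 0 and 0.48% were called lower. All 15 cycling markers were below 0 (median log2 fold change -0.77), 2 of them (Aurkb and Bub1b) were called lower, and their summed CPM were 1951 and 1526 in labelled Hira KO, against 2650 and 3097 in labelled WT. Of 12 granulocyte and monocyte markers, 11 were below 0 and 1 (Ly6c2) was called lower, while Csf1r was above 0 (0.55). Their sums were 1758 and 923.3 CPM in labelled Hira KO and 4248 and 2723 CPM in labelled WT. Of 12 erythroid markers, 8 were below 0 and none was called. Above 0 were the globin genes Hbb-bs (1.57), Hba-a1 (0.12) and Hba-a2 (0.34) and also Alas2 (0.36), all with overlap between the labels. The sums of the 12 were 203.4 and 83.43 CPM in labelled Hira KO and 399.4 and 517.9 CPM in labelled WT. Tfrc and Ermap were the largest terms of these sums in every library. For these 3 lists the sums of the labels did not overlap and were lower in labelled Hira KO.

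The list for the LSK fraction held the gate genes Ly6a (Sca-1) and Kit and 6 genes of stem and progenitor subsets, all present in every library. Ly6a, Flt3 and Meis1 were called higher among these 8, whose sums were 1007 and 1194 CPM in labelled Hira KO and 650.8 and 750.9 CPM in labelled WT. Called higher were 1.32% of all genes tested, and called lower 0.48%. Kit had 330.0 and 327 CPM in labelled Hira KO, against 274 and 351 CPM in labelled WT, with overlap. The 15 tested immediate-early genes were all above 0 and 3 were called higher, with sums of 1214 and 5489 CPM in labelled Hira KO, against 240.8 and 176.2 CPM in labelled WT. Labelled Hira KO replicate 2 stood apart in that list, and replicate 1 was also above both labelled WT libraries. A link between that list and the 48 genes was not tested. B and plasma cell sums were 424.2 and 336.3 CPM in labelled Hira KO and 401.5 and 313.3 CPM in labelled WT (Jchain called higher, Igll1 lower, of 11). T and NK sums were 93.88 and 53.01 CPM in labelled Hira KO, against 95.23 and 84.97 CPM in labelled WT (Cd4 called higher, of 8 tested). The markers Cd3g, Cd8b1 and Egr3 did not pass the filter on low counts, with at most 10 expected counts in a library, and Cd8b1 was at 0 in labelled Hira KO replicate 1.

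In the ATAC data, the promoters of the ribosome biogenesis genes were open in every library. The authors' lists held 92839 and 73715 peaks in labelled Hira KO, against 79565 and 63422 in labelled WT, and merging them gave 112479 regions. The promoter window, from 250 bases before the start to 50 after it, was met by a region called in all 4 libraries for 43 of the 43 genes with a promoter entry, against 81.0% of 10802 tested genes. The authors' fold enrichment of those regions had medians of 53.8 and 42.2 in labelled Hira KO and 53.1 and 36.8 in labelled WT, with a range of 8.86 to 168. Within each library's own list of all peaks, these medians stood at the 94.3 and 91.6 percentiles in labelled Hira KO and the 92.0 and 89.0 percentiles in labelled WT. Promoter regions of other genes were not ranked, so whether such percentiles are particular to these genes was not tested. The replicate 1 libraries had the larger medians under both labels. The regions were 574 to 4396 bases wide with a median of 1282. Nop2, with the lowest RNA fold change, had promoter folds of 47.1 and 39.5 in labelled Hira KO and 46.0 and 29.9 in labelled WT. No read depth came with the peak lists, and no test was made between them.

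Regions called in 1 labelled pair only near these genes were mostly those of the labelled WT pair. Within 10 kb of the 48 gene bodies lay 285 regions, of which 143 (50.2%) were called in all 4 libraries, against 43.7% of the 78093 regions near any tested gene. Called in both labelled Hira KO libraries and neither labelled WT library were 3 (1.05%, against 5.04% near all tested genes). Called in both labelled WT libraries and neither labelled Hira KO library were 26 (9.12%, against 3.06%). A comparison with genes at or above the median level of the 48 was added after these values had been seen. It is not matched by level, since 24 of the 48 genes lie below that bound and it has no upper bound. Near 3927 other tested genes with a mean TPM at or above the median of the 48, 4.32% of 31846 regions were called in the labelled Hira KO pair only and 4.08% in the labelled WT pair only. These shares have no test, since regions near 1 gene are not independent and each group is 2 peak lists.

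By library, the 285 regions near the 48 genes were called in 198 and 177 cases in labelled Hira KO (69.5 and 62.1%), against 235 and 212 in labelled WT (82.5 and 74.4%). Over all tested genes the shares were 78.7 and 63.2% in labelled Hira KO and 71.5 and 55.5% in labelled WT. Near the 48 genes both labelled WT libraries thus had more of the regions than both labelled Hira KO libraries, while over all tested genes the labels overlapped. Leaving out 1 peak list raised the counts, since fewer lists then had to share a call. The share called in labelled Hira KO only, near the 48 genes, was 4.73% without labelled Hira KO 1, 6.52% without labelled Hira KO 2, 4.29% without labelled WT 1 and 2.55% without labelled WT 2. Over all tested genes it was 10.2, 21.2, 11.5 and 6.58% in the same order. The share called in labelled WT only, near the 48 genes, was 15.6, 11.2, 19.3 and 20.8% in that order, against 6.31, 5.18, 6.05 and 12.2% over all tested genes.

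**Figure D5:**
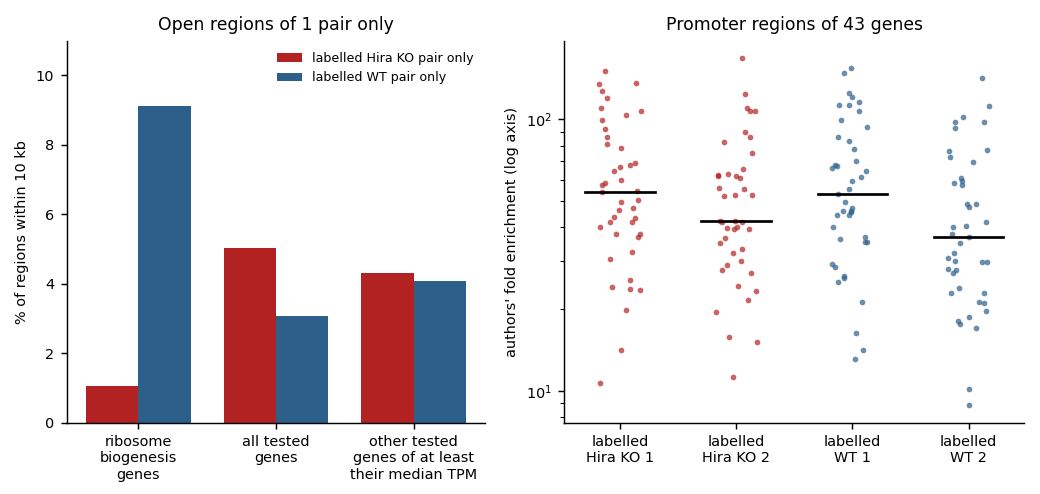
Left, share of regions within 10 kb of gene bodies that were called in 1 labelled pair only, near the 48 genes, near all tested genes and near other tested genes at or above the median TPM of the 48. Right, the authors' fold enrichment (log axis) of the promoter regions of 43 genes in the 4 ATAC libraries, with medians as bars at 53.8, 42.2, 53.1 and 36.8. Near the 48 genes the bars are 1.05% for the labelled Hira KO pair and 9.12% for the labelled WT pair.

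The 3 regions called in the labelled Hira KO pair only lay near Fbl, Nop2 and Rrp12, with folds from 4.12 to 7.89. The 26 regions called in the labelled WT pair only lay near 15 of the 48 genes, and 17 of them were also within 10 kb of another tested gene. Gnl3 had 5, Nop2 had 3, and Ncl, Npm1, Nolc1, Nop58 and Noc2l had 2 each. Most were weak peaks, with folds from 2.69 upward. The exception was a region at chr4:156245723-156247650 at the end of Noc2l, with folds of 20 and 27.9 in labelled WT. At Gnl3 the 5 regions ran from chr14:31008967-31009417 past the end of the gene to chr14:31014012-31014395 within it, with folds between 3.61 and 9.52. Bop1 had 1, at chr15:76462304-76462622 within the gene body, with folds of 3.46 and 4.27.

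Relative to the direction of transcription, which was known for 23 of the 26, 11 labelled WT regions lay past the end of the gene (47.8%), 9 within it (39.1%) and 3 before its start (13.0%). Near all tested genes, 27.9% of 2771 such pairs of a gene and a region lay past the end, 52.2% within and 19.8% before the start. For regions called in all 4 libraries, 33.3% of 126 pairs near the 48 genes lay past the end, against 19.6% of 36651 near all tested genes. The larger share past the end was thus not particular to the labelled WT regions. This reading by place was added after the data had been seen, and the 23 regions include several of 1 gene.

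The E-box CACGTG, which reads the same on both strands, was in the promoter window of 9 of the 43 genes (20.9%). A gene counted when any of its promoter windows held the motif, with only open windows used for the open set. The E-box was found for 16.8% of 95 other pathway genes and 12.2% of 8745 tested genes with a promoter open in all ATAC libraries. It was found for 8.09% of all 27025 genes of the promoter table. Its first base lay 60 bases before the start of Nop2, 20 before that of Utp18, 48 and 215 before that of Rrn3, and past the start in Pes1, Wdr43, Nle1, Tsr1, Utp20 and Mybbp1a. The RNA fold change was alike with and without it, with a median of -0.48 over the 9 genes and -0.53 over the other 34. The 9 include both ends of the range, Nop2 at -1.21 and Utp18 at 0.31. A pair of further motifs, searched on both strands, was added after the data had been seen. CCGGAAG, a core bound by ETS factors, was found for 37.2% of the 43 genes and 44.2% of the other pathway genes. It was found for 22.7% of genes with an open promoter and 9.93% of all genes of the promoter table. GGGCGG, the GC box, was in 79.1, 65.3, 71.5 and 38.2% of the same sets. Matches to different motifs were counted separately and may share bases. A match is a description of letters and not evidence of binding.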

How the data were processed

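For each assay, RNA-seq and ATAC-seq, 2 libraries titled Hira KO and 2 titled WT were grouped and numbered by those titles. RNA was amplified and made into libraries with NuGEN and Nextera XT kits, per the labels' protocols. Tools named, per the submitters' processing notes, are Trim Galore 0.4.5, STAR 2.5.3a, RSEM 1.3.0, HTSeq, DESeq2, Bowtie2 2.2.9, MACS2 2.1.1, bedtools and GRCm38, with no role for each; strand and transposase offset are not given in the sources used here. Deposited expected counts are the authors' RSEM estimates per gene without normalization, and the TPM deposited by the authors are scaled by effective length to a fixed total per library, per the file headers. Every ATAC library has its own peak list, in which the authors deposited a fold enrichment, a −log10 p-value and a −log10 q-value for each peak.

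The 48 genes and the other lists were chosen with earlier results of these data known. Symbols were found for 45143 of 45706 gene IDs, and positions, promoters and strands came from RefSeq tables of GRCm38.p6. Rounded expected counts entered edgeR 4.0.16 under R 4.3.3 (TMM, filterByExpr, robust quasi-likelihood F test, label as the only term) over 16258 genes, with Benjamini-Hochberg adjustment and calls below 0.05. SEs and 95% intervals came from the F statistic. The biological coefficient of variation was 27.8%, and libraries of a label differed beyond sampling noise (chi-square per gene 74.8 in labelled Hira KO and 54.6 in labelled WT). That chi-square used counts scaled only by their total and included mitochondrial genes, whose share differed within each label. It is thus not a measure of variation gene by gene. Genes are given per library by role group: the highest mean TPM, the 2 smallest p, any called gene, and the largest fold change in each direction; of the other lists, called genes or else the 2 smallest p. Peaks overlapping by at least 1 bp were merged, and a region belonged to a label when both its lists and neither other list called it. Alternatives were RLE factors, mitochondrial genes left out, no filter, at least 1 CPM in all libraries, DESeq2 1.42.0, limma 3.58.1 on log2(TPM + 1) and log2(TPM + 0.1), the replicate number as a block, each library left out, and, for regions, 2 and 50 kb, a −log10 q of at least 5 and an overlap of 100 bp. The scripts were checked on simulated data. The result of 1 marker list is not reported here.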

Additional observations from a re-analysis of the deposited data

How the results depend on the processing

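Leaving out each library in turn gave 1 to 1657 genes called higher and 1 to 1888 called lower over all genes, against 214 and 78, and 0 to 26 of the 48 called lower, against 1. The highest counts came without labelled Hira KO replicate 1, and the lone library was assumed to vary like the other label. The counts called higher and lower over all genes were 1206 and 1017 without a filter on low counts, 374 and 152 with at least 1 CPM in all libraries, 774 and 517 with DESeq2, 392 and 262 with limma on log2(TPM + 1) and 376 and 246 on log2(TPM + 0.1). Of the 48, 21, 4, 10, 0 and 0 were called lower in these 5 settings. Without a filter and with DESeq2 the median of all genes was 0.13, so fold changes there are relative to that shift. With the replicate number as a block, 368 genes were called higher and 169 lower, and 1 of the 48 (Bop1, adjusted p = 0.0373); over genes, deviations of libraries of the same number had a correlation of 0.022, although the mitochondrial share was larger in replicate 2 under both labels, so no pairing was assumed. The median of the 48 was -0.59 with limma on log2(TPM + 0.1) and -0.57 to -0.49 with a library left out, and 46 or 47 of the 48 were below 0 in every setting run. Over 240 repeats of the 20 members named by rule none reversed, 50 were newly called and 4, all Bop1, lost the call. Repeats for other genes were added after seeing the data: of 24 for Pes1 and Wdr12 none reversed and 1 was newly called, and of 132 for the 11 named pathway and Myc family genes none reversed, 28 were newly called and 4, all Taf1c, lost the call. Within 50 kb of the 48 genes, 327 regions were called in all 4 libraries (48.1%, against 42.4% near all tested genes). The labelled Hira KO pair only had 22 (3.24%, against 5.35%) and the labelled WT pair only 49 (7.21%, against 2.86%). At a −log10 q of at least 5, the labelled Hira KO pair only had 4 (1.65%, against 4.68%). The labelled WT pair only had 17 (7.02%, against 2.79%). With a peak list left out, 7 to 18 regions were called in labelled Hira KO only and 31 to 57 in labelled WT only. The causes of these movements were not tested. With 2 libraries a label, genes of low count and modest fold changes are the least certain, and the peak lists carry no depth.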
